A study of Mus musculus with 8 samples.

Results

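The 5 genes described here encode secreted proteins of the tissue matrix and of growth factor signalling: the bone morphogenetic protein genes Bmp3 and Bmp4, the collagen genes Col8a1 and Col1a1, and Igfbp5, which encodes insulin-like growth factor binding protein 5. They were chosen by name from a list of N6-methyladenosine (m6A) peaks that differed between genotypes, and they hold 8 of its 195 peaks and 5 of its 168 genes. Because that list holds only peaks that passed the authors' test, the presence of these genes on it and the sign of their values are a description and not a finding, and no test was run on them. All other values come from the same contrast and are also given without a test.

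The cells came from the colonic epithelium of C57BL/6 mice in postnatal week 6. The control mice had the genotype Mettl14 f/f, in which both copies of the gene are flanked by loxP sites. The knockout mice had the genotype Mettl14 f/f; CDX-cre, in which a Cre recombinase deletes the floxed gene. All mice of both groups carried the floxed alleles, no treatment was given, and the labels do not say which Cdx promoter drives the Cre or which cells of the colon it reaches. Each genotype had 3 libraries of RNA pulled down with an m6A antibody and 1 library of total RNA as input, 8 in all. Nothing in the labels says whether the 3 libraries of a genotype came from separate animals.

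N6-methyladenosine is a methyl mark on adenosines inside mRNA. It is written by a complex of METTL3, the catalytic subunit, and METTL14, which holds the RNA, and it is best known from long exons, from the surroundings of stop codons and from 3' untranslated regions, where reader proteins can change the stability or translation of the transcript. Bone morphogenetic proteins are secreted ligands that signal through paired serine/threonine kinase receptors to SMAD transcription factors. In the gut, BMP4 comes largely from the mesenchyme beneath the epithelium, where BMP signalling favours differentiation over stem cell renewal. BMP3 is an atypical member of the family, known from bone as a factor that opposes the signalling of other BMPs. Type I collagen, whose alpha 1 chain is encoded by Col1a1, forms the thick fibrils of connective tissue and is made chiefly by fibroblasts, whereas type VIII collagen, whose alpha 1 chain is encoded by Col8a1, is a short chain that forms networks and is known from blood vessel walls and from a basement membrane of the cornea. IGFBP5 binds insulin-like growth factors outside the cell and can attach to the matrix.

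All positions, enrichments, fold changes and false discovery rates (FDR) below were taken from the authors' deposited table, which gives 1 value per peak and none per library. The values therefore carry no replicate error, and the depth behind them is unknown. Fold enrichment is the linear ratio of immunoprecipitate to input over a peak. The log2 fold change is the difference in m6A signal between the genotypes on a log2 scale, and the FDR quoted with it belongs to that difference; the highest FDR on the list was 0.0501. No source used here names the numerator of the fold change, so signs are reported as deposited. With the knockout as numerator a positive value is higher in the knockout, and with the control as numerator it is higher in the control; genes of opposite sign stay opposite either way. Since there is 1 input per genotype and its use is not stated, a change in methylation, a change in the amount of the transcript and a change in the number of cells that make it cannot be told apart. Coordinates are 1-based on mouse build mm10, and positions along a gene are counted from the 5' end of its RefSeq span, introns included. The RefSeq table used holds no exons, so peaks were not assigned to coding or untranslated regions, and a block below means an uninterrupted stretch of the peak as deposited. Peak sequences are not shown and the m6A consensus motif was not searched, since no genome sequence was used here.

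Each pair of related genes, paired with these values known, had opposite signs. Bmp3 had 2 peaks, both negative, and Bmp4 had 1 positive peak; Col8a1 had 3 peaks, all negative, and Col1a1 had 1 positive peak. Igfbp5 had 1 peak, and it was positive. In all, 3 of the 8 peaks were positive, or 37.5%, where 61.5% of the whole list was positive, and 3 of the 5 genes were positive, where 64.9% of listed genes were. The difference in count between peaks and genes arises because both negative genes had several peaks. All 8 peaks differed by 1 log2 unit or more in size, which 71.3% of listed peaks did, and 5 of the 8 had an FDR of at most 0.01, which 53.3% of listed peaks had. Their selection from this contrast means that nothing is read from these counts.

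**Figure D1:**
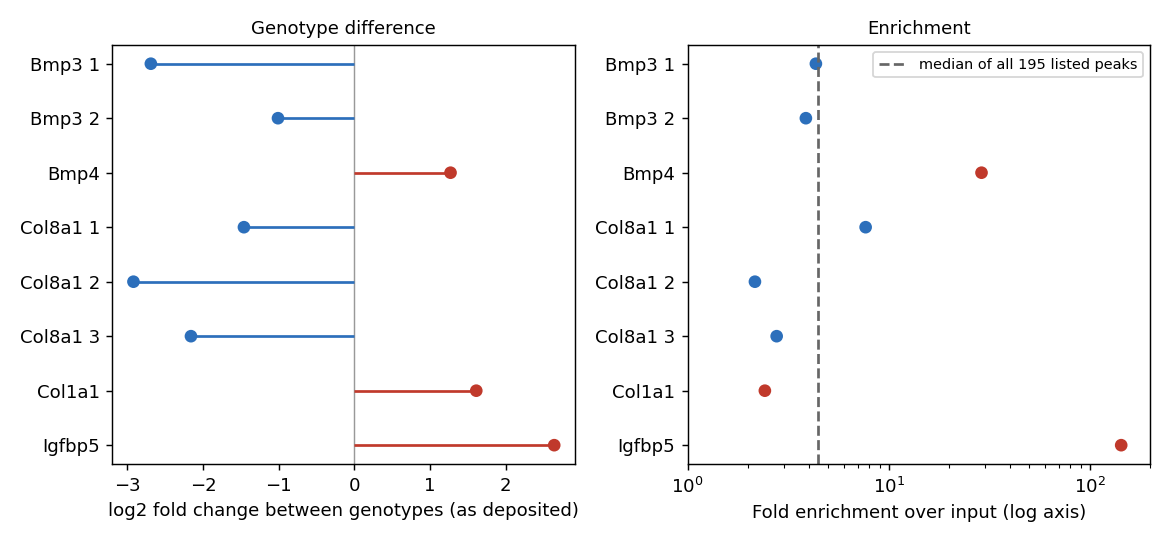
The left panel plots the log2 fold change between genotypes, as deposited, for each of the 8 peaks, numbered from the 5' end of the gene where there is more than 1, and the right panel plots the fold enrichment over input on a log axis, with the median of all 195 listed peaks (4.43-fold) as a dashed line. Red points are positive and blue points negative: the 5 peaks of Bmp3 and Col8a1 lie between -2.92 and -1.01, and Bmp4, Col1a1 and Igfbp5 lie between 1.27 and 2.64. There are no error bars because the table has 1 value per peak.

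Among the ligands, the Bmp3 peak nearest to the 5' end had a log2 fold change of -2.69 (FDR 2.63e-09), a 6.45-fold difference. It was a single block of 270 nt at chromosome 5, 98855067 to 98855336, on the plus strand, starting 652 nt from the 5' end of the gene span. By FDR it ranked 11 of 195, the lowest FDR of the 8 peaks. The other Bmp3 peak was weaker in its difference, -1.01 (FDR 3.98e-06), or 2.01-fold. It spanned chromosome 5, 98872332 to 98879763, in 2 blocks, the first of 603 nt and the second of 26 nt, separated by 6803 nt. The larger block was centred at 61.5% of the gene span and the smaller at 85.5%. Enrichment over input was nearly the same in both peaks, 4.34-fold and 3.87-fold, just below the median of the list, 4.43-fold. The Bmp3 transcript thus held 2 similarly enriched peaks, 16995 nt apart in the genome, whose differences between genotypes were 1.68 log2 units apart.

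Bmp4 had fewer peaks than Bmp3, a longer block, a higher enrichment and the opposite sign. Its single peak had a log2 fold change of 1.27 (FDR 0.024), a 2.41-fold difference, and ranked 149 of 195 by FDR. It was 1 unbroken block of 1072 nt at chromosome 14, 46383579 to 46384650, on the minus strand, and ended 54 nt before the 3' end of the gene. The peak covered 15% of the gene span of 7145 nt, where the 899 nt of Bmp3 blocks made up 3.03% of a span of 29639 nt. Bmp4 was enriched 28.9-fold over input, 6.66 times the higher of the Bmp3 values. This ranked 18 of 195 by fold enrichment, and 35 by the p-value of the enrichment. Between the peaks with the largest difference, Bmp3 minus Bmp4 was -3.96 log2 units. At its 3' edge, 30 nt of the Bmp4 peak lay inside the span of the long noncoding RNA gene Gm15217, and the 26 nt block of Bmp3 lay inside the span of another, Gm42123. The RefSeq table gives no strand for these genes, so whether reads could be shared was not tested.

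**Figure D2:**
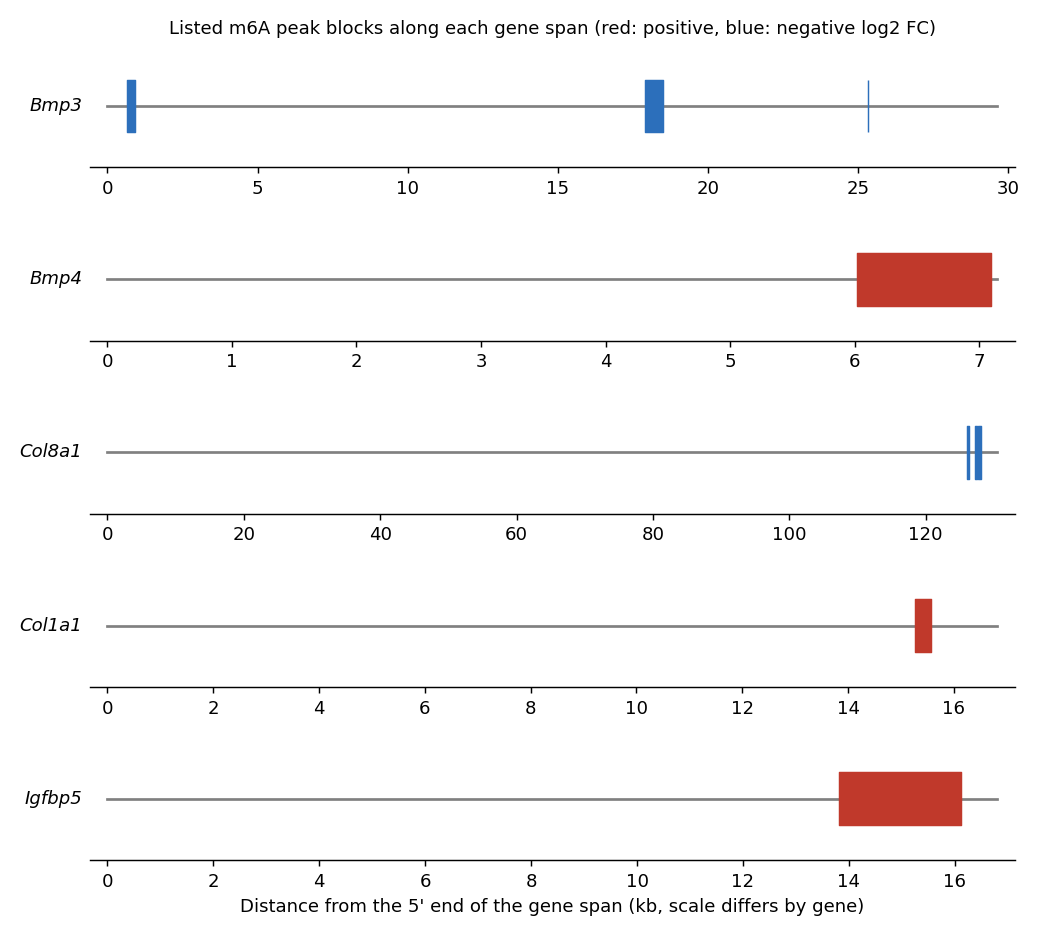
Each row is the RefSeq span of a gene drawn from its 5' end (left) in kilobases, with a scale of its own, and the boxes are the blocks of its listed peaks, red for a positive and blue for a negative log2 fold change. Bmp4, Col8a1, Col1a1 and Igfbp5 have their blocks late in the span, while a block of Bmp3 starts 652 nt from the 5' end. The row for Col8a1, 130482 nt long, shows its last 2 peaks merged, although 208 nt lie between them.

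The collagen genes also stood on opposite sides. The 3 peaks of Col8a1 lay on the minus strand of chromosome 16, each a single block, and together took up 2063 nt near the 3' end of a gene span of 130482 nt. In order from the 5' side, the first lay at 57628379 to 57628738 with a log2 fold change of -1.46 (FDR 0.0204). The second lay at 57627244 to 57627453 with -2.92 (FDR 2.51e-05), the lowest value of the 8 peaks and 4th from the bottom of the whole list. The third lay at 57626676 to 57627035 with -2.16 (FDR 0.000219). These correspond to differences of 2.75-fold, 7.57-fold and 4.47-fold. Gaps of 925 nt and 208 nt separated them, and their midpoints lay between 96.7% and 98.0% of the gene span. Enrichment ran in the opposite order to the difference: the first peak was enriched 7.67-fold, the third 2.77-fold and the second 2.16-fold. The smallest difference of the gene thus fell on its most enriched peak, and the largest on its least enriched peak. Of the 195 listed peaks, the peak at -2.92 ranked 171 by fold enrichment and 182 by the p-value of the enrichment. By the same measures the peak at -2.16 ranked 147 and 176, and the peak at -1.46 ranked 55 and 34. The largest difference of Col8a1 therefore rests on a weakly enriched peak. These are only 3 peaks, all of which passed the authors' threshold on the difference. The sources do not say whether the enrichment pools both genotypes. The enrichment and the difference may therefore not be independent, and their relation was not tested.

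Col1a1 had 1 peak of 300 nt at chromosome 11, 94951497 to 94951796, on the plus strand. Its log2 fold change was 1.61 (FDR 0.0347), a 3.05-fold difference, and by FDR it ranked 170 of 195, the highest FDR of the 8. The peak was enriched 2.42-fold, rank 164 of 195, close to the lower values of Col8a1 and below the 7.67-fold of the first Col8a1 peak. Its midpoint lay at 91.7% of the gene span of 16819 nt, 1246 nt from the 3' end at its near edge. Position late in the gene was thus common to both collagen genes, while the sign differed. This position was not particular to them: 73.1% of the 93 listed peaks with 1 block had midpoints past 75% of the gene span. Between the peaks with the largest difference, Col8a1 minus Col1a1 was -4.53 log2 units. Those peaks were the least enriched of the 8, 2.16-fold in Col8a1 and 2.42-fold in Col1a1. Both values lay below the median of the list, 4.43-fold.

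Igfbp5 had the strongest peak of the 5 genes by enrichment. The peak was 1 block of 2300 nt at chromosome 1, 72858752 to 72861051, on the minus strand, covering 13.7% of the gene span and ending 687 nt before the 3' end. Its enrichment of 143-fold was the second highest of the 195 peaks, its log10 p-value for enrichment, -92.9, ranked 3, and its block was the second longest of the list. The log2 fold change was 2.64 (FDR 3.02e-05), a 6.23-fold difference, which ranked 19 among the 120 positive peaks. The size of this difference was close to that of the 5' peak of Bmp3, with the opposite sign, although the Bmp3 peak was enriched 4.34-fold.

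**Figure D3:**
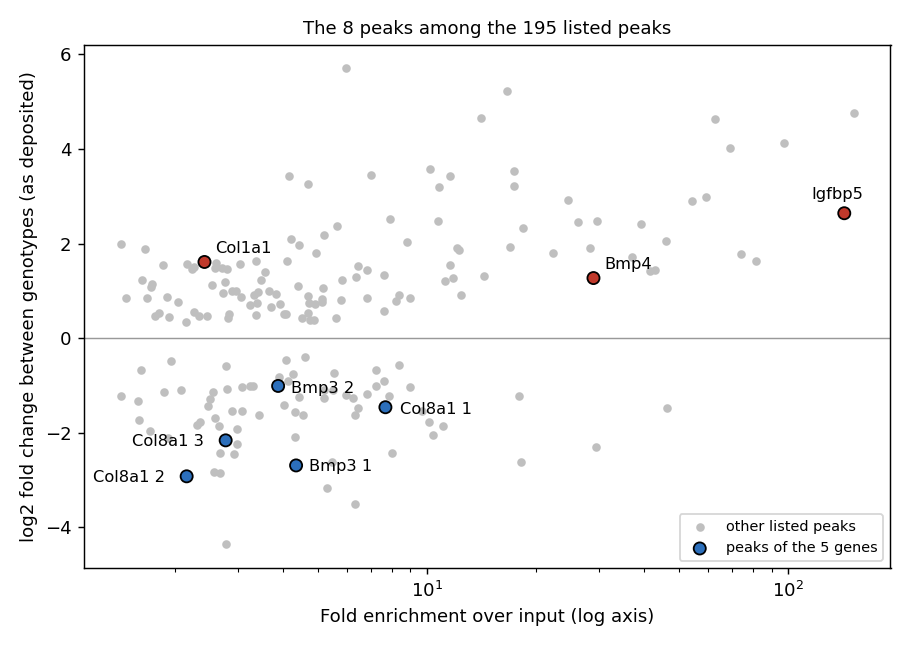
Each point is 1 of the 195 listed peaks, plotted by its fold enrichment over input (x axis, log scale) and its log2 fold change between genotypes as deposited (y axis). The 8 peaks of the 5 genes are outlined in black, red for positive and blue for negative values: Igfbp5 lies at 143-fold and Bmp4 at 28.9-fold, while the other 6 peaks lie between 2.16-fold and 7.67-fold.

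The genes with several peaks differed from one another in how alike their peaks were. Of the 22 listed genes with more than 1 peak, Bmp3 had the widest range of log2 fold change between its peaks, 1.68, and Col8a1 the second widest, 1.46. The other 20 ranged from 0.03 in Apoe to 1.23 in Tchh, and the median of all 22 was 0.505. These ranges cover listed peaks only, so any peak of a gene that failed the authors' threshold is left out. Having several peaks was itself seen in 13.1% of listed genes, and having 3 or more in 2.38%, which are 4 genes. The peaks of Bmp3 lay in distant parts of the gene, 24697 nt from the first to the last base, while those of Col8a1 lay within 2063 nt, so the wide ranges were found at both scales. In Bmp3 the more enriched peak was also the one that differed more, though its enrichments were close, 4.34-fold and 3.87-fold. The same was counted in 8 of the 22 genes, Bmp3 included, and not in the other 14, Col8a1 included. Clca4b, among the 8, had its highest enrichment, 17.4-fold, in peaks at both 3.21 and 3.54, so its place in this count was arbitrary. Without an error for a single peak, whether peaks of 1 gene differ from each other could not be tested.

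**Figure D4:**
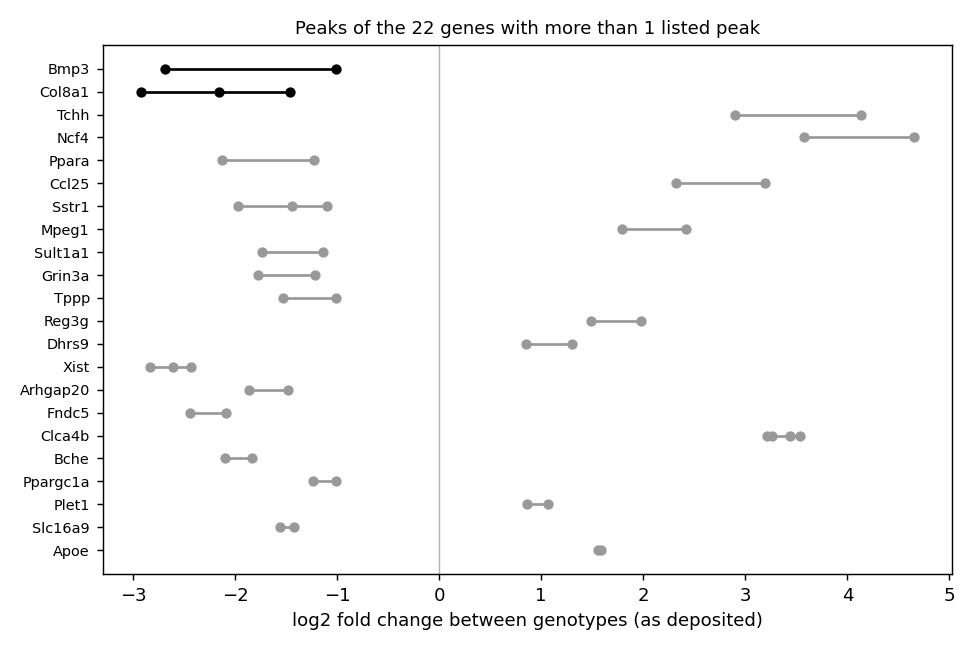
Each row is 1 of the 22 genes with more than 1 listed peak, ordered by the range between its peaks, and each point is the log2 fold change of a peak as deposited, joined by a line from the lowest to the highest. Bmp3 and Col8a1, in black, are the top rows with ranges of 1.68 and 1.46, and no gene has peaks on both sides of 0.

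In build, 7 of the 8 peaks had 1 block, against 47.7% of all listed peaks. Among listed peaks with 1 block 32.3% were positive, and of these 7 the peaks of Bmp4, Col1a1 and Igfbp5 were positive, or 42.9%. The exception with 2 blocks, in Bmp3, was negative, where 64.5% of the 31 listed peaks with 2 blocks were positive. In position, 6 of the 8 midpoints lay past 75% of the gene span, against 43.6% of all listed peaks; these 6 all had 1 block, and among the 93 listed peaks with 1 block 73.1% lay as late. The exceptions were both Bmp3 peaks, with midpoints at 2.66% and 73.0%. The 3 positive peaks of these genes were not alike in width, with 300 nt in Col1a1, 1072 nt in Bmp4 and 2300 nt in Igfbp5, against a median of 728.5 nt for the 30 positive listed peaks with 1 block. Their enrichment followed the same order, 2.42-fold, 28.9-fold and 143-fold. The negative peaks did not keep to it. Bmp3 had 3.87-fold at 629 nt and 4.34-fold at 270 nt, and Col8a1 had both 7.67-fold and 2.77-fold at 360 nt.

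Few other genes of these pathways were in the table. Of 19 BMP and TGF-beta ligand genes, Bmp3 and Bmp4 alone were listed, and of 20 genes of their receptors and SMAD proteins and 18 genes of BMP antagonists and BMP targets, 0 were. Of 11 fibrillar collagen genes only Col1a1 was listed. Of 22 other collagen genes Col8a1 and Col6a1 were, the latter encoding a chain of the microfibril-forming type VI collagen. The Col6a1 peak was positive like that of Col1a1, with a log2 fold change of 1.27 (FDR 0.0407), an enrichment of 11.8-fold and 1 block centred at 94.6% of its gene. Among 30 genes of matrix proteins and collagen processing 0 were listed, and of 19 genes of the insulin-like growth factor system only Igfbp5 was. None of 20 genes of m6A writers, erasers and readers had a listed peak, Mettl14 included, so the table gives no check of the deletion. A gene can be missing because its peaks failed the authors' threshold or because it had none, and these cases cannot be told apart here; with 168 genes on the list, low counts in lists of this size are no result about a pathway.

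The table gives no expression level, so the labelled epithelial origin could not be checked through the levels of marker genes. Of 16 markers of colonic epithelium 1 had a listed peak, Chga of enteroendocrine cells at -0.49 (FDR 0.00129). Of markers of the cells that usually make type I collagen and BMP4, 0 of 12 genes of fibroblasts and mesenchyme and 0 of 7 of smooth muscle and pericytes were listed, and so were 0 of 7 endothelial markers and 0 of 8 of enteric neurons and glia. Of 14 immune cell markers C1qa, a complement subunit of macrophages, was listed at 1.92 (FDR 1.74e-05). The related genes C1qb at 2.36 and C1qc at 2.47 were also listed but were not among the 14 markers. These counts cover the chosen markers only. Bmp4, Col1a1, Igfbp5 and Col6a1, all positive, and Col8a1, negative, were counted in the pathway lists. Listed genes outside every list, such as Mylk at 1.22, Tpm2 at 1.2 and Tpm1 at 0.547, were not sorted by cell type. Whether RNA of other cell types contributed to the peaks of these 5 genes was not tested.

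In the order of log2 fold changes over the whole list, the nearest genes to the second Col8a1 peak were Ugt8a at -3.17 and Tsix at -2.85, and those nearest to the 5' peak of Bmp3 were Xist at -2.83 and Lancl3 at -2.62. The third Col8a1 peak stood between Gm6086 at -2.24 and Ppara at -2.13, and the first between Ppp1r26 at -1.47 and Sstr1 at -1.44. The other Bmp3 peak tied with Ppargc1a and Tppp at -1.01 and had Cpm at -1.02 below it. On the positive side, Bmp4 tied with Col6a1 at 1.27, and Apex1 and Akr1b8, both at 1.23, were next below. Col1a1 stood between Apoe at 1.59 and both Ly6g6c and Tmem119 at 1.62. Igfbp5 stood between Cst6 at 2.51 and Tchh at 2.90. Closeness here is in a single value per peak, so neighbours in this order were not distinguished from one another. Xist had 3 listed peaks, at -2.83, -2.61 and -2.43. The Tsix peak and the Xist peak at -2.83 each had an FDR of 1e-17. The sample labels used here give no sex for the mice, and whether the genotypes differed in sex was not tested.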

How the data were processed

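A stranded low-input kit was used on 5 ug of total RNA, per the labels' protocols. Trim Galore 0.6.5, HISAT2 2.1.0, HOMER 4.10.0, R 3.6 and mouse build mm10 are named in the submitters' processing notes, with no role for each; the peak caller, and how the 3 immunoprecipitates and 1 input of a genotype were combined, are not given in the sources used here. For every peak, the deposited table gives (per the file headers) the fold enrichment as a linear ratio, the p-value of the enrichment with its log10 and the log10 of its FDR, and for the genotype difference the log10 p-value, the log10 FDR and the log2 fold change. Exon blocks are as the authors deposited them.

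Rows whose gene name equalled 1 of the 5 names were taken. Log10 values were turned into linear ones, block sizes were summed, and peaks were placed on RefSeq gene spans of GRCm38.p6 (the same assembly as mm10); 164 of 168 names matched current symbols and 4 older ones. The position code was tested on simulated peaks. Python 3.11.15, pandas 2.3.3, numpy 2.4.6 and matplotlib 3.10.9 were used. The genes and the 14 lists were chosen with earlier results of these data known. Genes were named by rule: the 5 genes, list genes with a listed peak, and the nearest others in the order of log2 fold changes. Further genes were named after their values were seen. These were Tchh and Apoe, for the ends of a range, and Gm15217, Gm42123, Prkg2 and Nme1, for their place beside a peak. They also include Clca4b, for a tie, and C1qb, C1qc, Mylk, Tpm1 and Tpm2, as listed genes outside the 14 lists. With 1 value per peak and no library values, no test was run and no error or interval was computed for a peak; an exact 95% interval of the share of positive peaks (scipy 1.17.1) served only to judge how far alternatives moved that share. Alternatives were an FDR of at most 0.01, a size of 1 log2 unit or more, at least the median enrichment, other choices of peak per gene and of point within a peak, the p-value in place of the enrichment, exact names, and the unit or block number of the background.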

Additional observations from a re-analysis of the deposited data

How the results depend on the processing

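With an FDR of at most 0.01, 1 positive peak (Igfbp5) and 4 negative peaks were left, so Bmp4, Col1a1 and the first Col8a1 peak drop out. With at least the median enrichment of the list, 2 positive peaks and 1 negative peak were left. With the mean over a gene's peaks, Bmp3 minus Bmp4 was -3.12 and Col8a1 minus Col1a1 was -3.79. By the p-value of the enrichment, 5 of the 8 peaks lay past the median of the list, against 3 by fold enrichment. The Bmp3 peak with 2 blocks moved from rank 116 to 29 and the other Bmp3 peak from 101 to 82. Bmp4 moved from 18 to 35, Igfbp5 from 2 to 3 and Col1a1 from 164 to 179. The first Col8a1 peak moved from 55 to 34, the second from 171 to 182 and the third from 147 to 176. The cause was not tested. Among peaks with 1 block, added after seeing the data, the share of positive peaks in the list was 32.3%. The other settings moved no count by over 1.5 times and turned no sign. For Igfbp5, the other choices of peak were not run because it has 1 peak, and the motif search was not run because no genome was used. No paired analysis was possible because values of single libraries were not used here, and leaving out a replicate was not possible for the same reason.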

Other observations

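Spliced widths of 5 of the 8 peaks (1 of Bmp3, all 3 of Col8a1 and that of Col1a1) were whole multiples of 30 nt, as were those of 28.2% of all listed peaks and 25.8% of those with 1 block; the peaks of Bmp4 and Igfbp5 and the 2-block peak of Bmp3 were not. This property was looked at after the widths were seen and was not tested. The listed peak of another gene nearest to any of the 8 was that of Prkg2, 52073 nt from the 2-block peak of Bmp3. The nearest other listed peaks to Bmp4, Col8a1 and Igfbp5 lay 4.54 Mb, 13.1 Mb and 10.3 Mb away, and that nearest to Col1a1, in Nme1, 983152 nt away.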
